A study of Mus musculus with 6 samples.

Results

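The 7 genes described here encode receptors for 2 transmitters, dopamine (Drd1, Drd2, Drd3, Drd4 and Drd5) and GABA acting at GABA-B receptors (Gabbr1 and Gabbr2). They were picked by gene symbol out of 19937 genes measured in nasal tissue of newborn mice, and the group was chosen by the measured fall of Drd2 in the mutant. The levels of Drd2 are therefore given as a description without a test. The other 6 genes entered the group by family and not by their own values, though the list was made with earlier results of these data known. Tissue of the septa and turbinates came from Atf5-/- (knockout) and Atf5+/+ (wild-type) pups of the C57BL6 strain on the day of birth (P0), all offspring of Atf5+/- parents. Each genotype had 3 samples, each pooled from 3 pups of different litters and hybridised to 1 array. Atf5 encodes a leucine zipper transcription factor, and the labels name no Cre driver or other tissue restriction for the allele.

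Dopamine receptors are G protein-coupled receptors of 2 classes: the products of Drd1 and Drd5 stimulate adenylyl cyclase through Gs-type proteins, and those of Drd2, Drd3 and Drd4 inhibit it through Gi/o proteins. The GABA-B receptor is a dimer, in which the product of Gabbr1 binds GABA and the product of Gabbr2 carries Gabbr1 to the cell surface and couples to Gi/o proteins. Axons of olfactory sensory neurons end in the glomeruli of the olfactory bulb, where dopamine and GABA released by juxtaglomerular interneurons act on D2-type and GABA-B receptors of the terminals and lower calcium entry and glutamate release. The transcripts for these receptors are made in the cell bodies of the neurons, which lie in the nasal tissue sampled here.

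Expression is given as the log2 level deposited by the authors, and a difference is the knockout mean minus the wild-type mean on that scale, so that a difference of -1 is a level 2-fold lower in the knockout. A level of 1 probe set cannot be compared with that of another, so where one is subtracted from another within an array, only the change of that value between the genotypes is described. The 6 arrays had medians between 8.67 and 8.72. Atf5 itself, the targeted gene, was at 9.43, 9.44 and 9.50 in the knockout arrays, against 10.54, 10.96 and 10.63 in the wild-type arrays, and the sources used here do not tell what stretch of Atf5 the allele lacks. Each of the 7 receptor genes had 1 probe set. A filter at the 30th percentile of gene means would keep 5 of them and leave out Drd3 and Drd5, and a filter at the median would keep 3, Drd2, Gabbr1 and Gabbr2.

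The promoters of Drd2 and Gabbr2, whose transcripts were lower in the knockout, are shown beside that of Gabbr1, the partner whose difference did not pass the test. Each is the 250 bases before the RefSeq start site in GRCm38.p6, read 5′ to 3′ on the gene's strand: Drd2 at chr9:49340153-49340402 (+ strand), Gabbr2 at chr4:46991715-46991964 (- strand) and Gabbr1 at chr17:37045716-37045965 (+ strand). Capitals mark a match to CCCNNGGG, the core of the site bound by Ebf (Olf-1) factors, which are known regulators of olfactory neuron genes.
Drd2: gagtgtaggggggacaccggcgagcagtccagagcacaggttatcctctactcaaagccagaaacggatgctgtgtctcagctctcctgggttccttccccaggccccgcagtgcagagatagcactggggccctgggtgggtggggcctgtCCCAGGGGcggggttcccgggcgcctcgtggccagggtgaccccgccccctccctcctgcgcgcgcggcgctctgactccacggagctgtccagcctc
Gabbr2: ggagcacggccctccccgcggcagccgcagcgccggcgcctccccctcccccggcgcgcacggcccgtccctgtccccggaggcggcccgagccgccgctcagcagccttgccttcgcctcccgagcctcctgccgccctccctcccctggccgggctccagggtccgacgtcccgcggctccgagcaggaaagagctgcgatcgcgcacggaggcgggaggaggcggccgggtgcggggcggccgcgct
Gabbr1: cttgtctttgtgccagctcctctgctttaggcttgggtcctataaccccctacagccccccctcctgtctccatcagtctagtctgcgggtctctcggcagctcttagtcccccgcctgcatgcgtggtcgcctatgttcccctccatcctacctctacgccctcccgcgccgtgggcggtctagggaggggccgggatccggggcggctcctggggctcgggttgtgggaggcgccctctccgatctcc

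The Drd2 window held 1 Ebf core, CCCAGGGG, which began 98 bases before the start site. No other receptor gene had one in its window, and 11.8% of 32851 promoter windows of the same length did. A longer form of the core, CCCNNGGGA, overlapped the same match on the other strand and stood in 5.60% of windows. Neither the cyclic AMP response element TGACGTCA, nor TGATGNAAT, a composite element of Atf and C/EBP factors, nor TAATTA, a site of LIM homeodomain factors, was present in the windows of the 7 genes on either strand. These letters stood in 1.55%, 0.816% and 4.84% of all windows. In all 9 motifs were searched on both strands, and the other 4 (the full Ebf palindrome, which is the core with T before and A after it, TGACG, TTGCATCA and TAATTG) matched no window of the 7 genes, against 0.779%, 17.8%, 0.791% and 7.17% of all windows. The motifs were chosen after the sequences had been read, and a match is a description of letters. The Gabbr2 window had 80.8% G or C and 37 CpG pairs, the Drd2 window 68.8% and 15, and the Gabbr1 window 66.0% and 16, against medians of 52.4% and 6 over all windows.

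Drd2 and Gabbr2 were lower in the knockout, Drd2 about 3-fold and Gabbr2 about 2-fold, and the other 5 receptor genes had differences between -0.15 and 0.07 on the log2 scale. Of the 6 genes not chosen for their own value, 1 fell (Gabbr2), none rose and 5 did not pass the test by limma at an adjusted p of 0.05; at an unadjusted p of 0.05 the counts were again 1 and 0. Over all 19937 genes 3.24% were called lower and 0.502% higher, the shares to set beside the list counts below. No share over all genes was counted at an unadjusted p of 0.05, so counts at that cut are a description. Among these 6 genes, Drd2 left aside, the median difference was -0.13, against 0.01 over all genes, and 5 lay below 0, as did 47.0% of all genes. The groups did not overlap for 1 of the 6 (Gabbr2), where 10.3% of all genes had every knockout array below every wild-type array and 10.8% had every knockout array above. In tissue samples of many cell types, fewer cells of a type and less RNA per cell cannot be told apart.

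**Figure D1:**
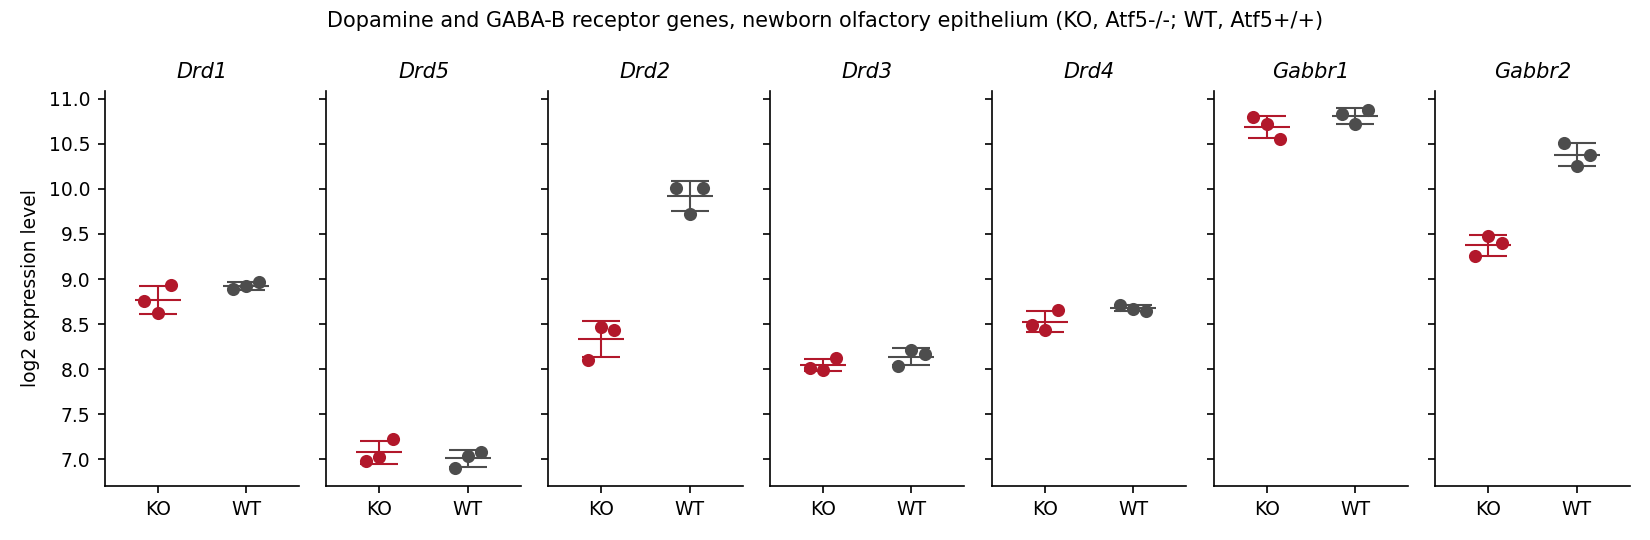
Log2 expression level (y axis) of the 7 receptor genes in each array of the knockout (KO, left) and the wild type (WT, right) of newborn olfactory epithelium. Points are arrays, the wide bar is the mean and the error bar the SD (n = 3). All panels share 1 axis, but heights are not compared between genes. The knockout arrays lie below all wild-type arrays for Drd2 and Gabbr2, and the groups overlap for the other 5 genes.

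Drd2 encodes the D2 receptor, the dopamine receptor known to sit on olfactory nerve terminals. Its log2 level was 8.10, 8.47 and 8.43 in the knockout arrays, against 10.01, 9.73 and 10.01 in the wild-type arrays. The highest knockout array was below the lowest wild-type array by more than the range within either genotype. Drd2 averaged 8.33 ± 0.20 in the knockout and 9.92 ± 0.17 in the wild type (SD, n = 3 each), a log2 difference of -1.58 or a level 3.00-fold lower. It held place 14 of 19937 when genes were ordered from the largest decrease.

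Gabbr2 encodes the GABA-B subunit that couples the receptor to G proteins. Its log2 level was 9.25, 9.48 and 9.40 in the knockout arrays, against 10.51, 10.26 and 10.37 in the wild-type arrays. All 3 knockout arrays were lower than any wild-type array, and the spread within a genotype was small beside the gap. Gabbr2 fell by 1.01 on the log2 scale (SE 0.08, limma adjusted p = 0.000505), which is a level 2.01-fold lower (95% interval 1.76 to 2.29). It held place 72 of 19937 in the order of decreases, and 0.371% of all genes were at least 2-fold lower. With any 1 array left out its difference lay between -1.07 and -0.94 and its highest adjusted p by limma was 0.00325.

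Gabbr1 encodes the subunit that binds GABA. Its log2 level was 10.79, 10.72 and 10.55 in the knockout arrays, against 10.83, 10.72 and 10.88 in the wild-type arrays. Knockout replicates 1 and 2 lay within the wild-type range or at its lower end, and knockout replicate 3 lay below it. The difference was -0.12 (95% interval -0.30 to 0.06, limma adjusted p = 0.520), so that a fall as large as that of Gabbr2 lies outside the interval. Both subunits are needed for a working receptor, and the array values allow their change to be compared within each sample. A sample holds many cell types, so the subunits are not compared within the neurons. The log2 level of Gabbr2 minus that of Gabbr1 was -1.54, -1.24 and -1.16 in the knockout, against -0.32, -0.46 and -0.51 in the wild type. This difference was thus lower in every knockout array, by 0.89 on average, or 1.85-fold. The exact 2-sided permutation test over the 6 arrays gave p = 0.1, the smallest value that 3 against 3 can give.

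Among the receptors of the D2 class, Drd3 and Drd4 did not pass the test. Drd4, whose receptor couples to Gi/o proteins as that of Drd2 does, was at 8.49, 8.44 and 8.66 in the knockout, against 8.71, 8.67 and 8.64 in the wild type. Knockout replicates 1 and 2 lay below all wild-type arrays, and knockout replicate 3 lay among them. The difference was -0.15 (95% interval -0.31 to 0.01, limma adjusted p = 0.362). Drd3, for a receptor best known from limbic brain regions, was at 8.02, 7.99 and 8.12 in the knockout, against 8.03, 8.21 and 8.17 in the wild type. These values overlapped, with a difference of -0.09 (-0.25 to 0.07, limma adjusted p = 0.593).

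Neither receptor of the D1 class passed the test. Drd1 was at 8.76, 8.62 and 8.93 in the knockout, against 8.88, 8.92 and 8.97 in the wild type, a difference of -0.15 (95% interval -0.34 to 0.03, limma adjusted p = 0.419). As for Drd4, knockout replicates 1 and 2 were below the wild-type arrays and knockout replicate 3 was among them. Drd5 was at 6.99, 7.03 and 7.22 in the knockout, against 6.91, 7.04 and 7.09 in the wild type, and was the 1 gene of the group with a difference above 0 (0.07, -0.12 to 0.25, limma adjusted p = 0.757). Its sign turned (-0.00) without knockout replicate 3. For each of Drd1, Drd3, Drd4 and Drd5 the 95% interval left out a 2-fold change of the measured level. All lay below the median of gene means, and Drd3 and Drd5 below the 30th percentile, which limits what these intervals show.

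**Figure D2:**
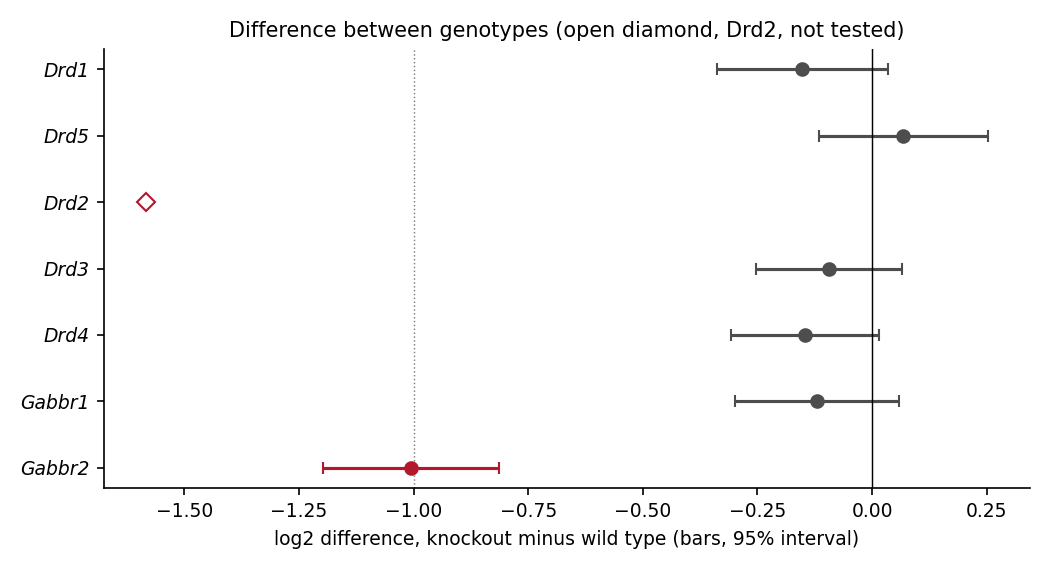
Log2 difference, knockout minus wild type (x axis), of each receptor gene (y axis), with 95% intervals from limma (n = 3 arrays per genotype). The dotted line marks a level 2-fold lower in the knockout; Gabbr2 lies on it at -1.01, Drd2 (open diamond, not tested, no interval) is at -1.58, and the intervals of the other 5 genes include 0.

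Drd2 was then set beside markers of the cells that carry the receptor. Of 15 markers of mature olfactory sensory neurons 14 fell and 1 did not pass, with a median difference of -1.49. Their differences ran from -2.74 to -0.21, so the marker mean used below averages unlike changes. Omp (olfactory marker protein) was at -2.23, Gnal (which encodes Golf, the G protein of odorant receptors) at -2.36 and Cnga2 (a subunit of the cyclic nucleotide-gated channel) at -1.93. The mean level of the 15 markers was 9.28, 9.35 and 9.23 in the knockout arrays, against 11.02, 10.70 and 10.77 in the wild-type arrays. The Drd2 level minus this mean was -1.18, -0.89 and -0.80 in the knockout, against -1.0, -0.97 and -0.76 in the wild type. These values overlapped, and their means differed by -0.04, a difference whose sign turned with knockout replicate 1 left out (0.07) or with wild-type replicate 3 left out (0.03). A larger decrease than that of Drd2 was seen for 7 of the 15 markers. The part of these neurons' number in the lower Drd2 level was not tested.

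Gabbr2 fell by less than most of these markers. Its level minus the marker mean was -0.03, 0.12 and 0.17 in the knockout, against -0.51, -0.44 and -0.40 in the wild type, so that it was higher relative to the markers in every knockout array, by 0.54 on average. A larger decrease than that of Gabbr2 was seen for 11 of the 15 markers. Gabbr1 minus the marker mean was 1.52, 1.36 and 1.32 in the knockout, against -0.19, 0.02 and 0.11 in the wild type. Set beside the marker mean, which differed by -1.54, the difference was -1.58 for Drd2, -1.01 for Gabbr2 and -0.12 for Gabbr1.

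**Figure D3:**
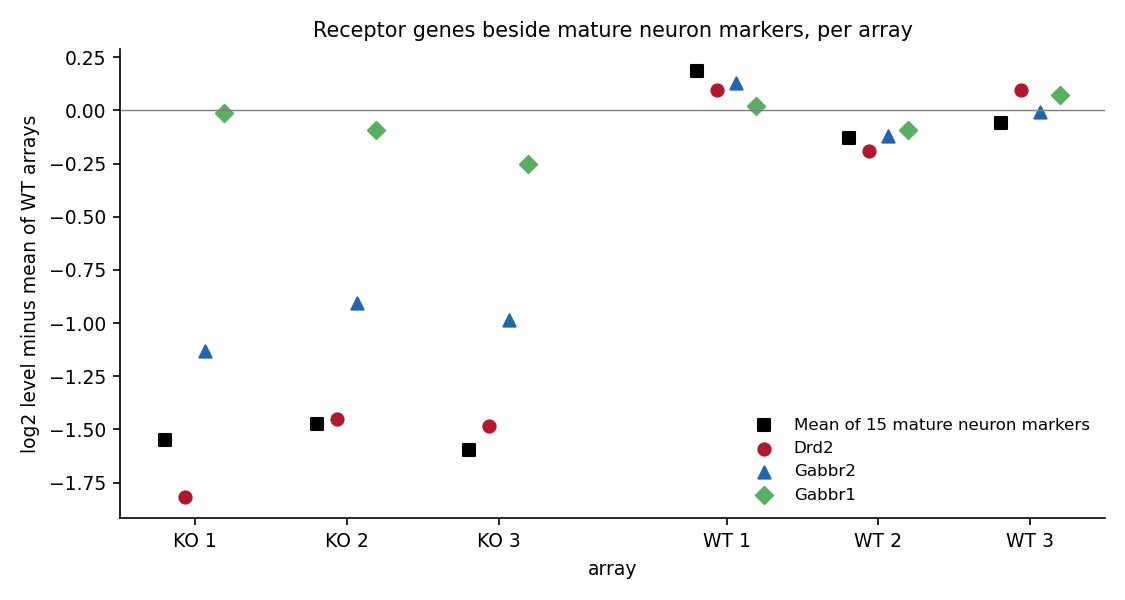
Log2 level minus the mean of the 3 wild-type arrays (y axis) in each knockout (KO) and wild-type (WT) array (x axis), for the mean of 15 mature neuron markers and for Drd2, Gabbr2 and Gabbr1. In the knockout arrays Drd2 lies close to the marker mean, Gabbr2 lies above both, and Gabbr1 lies nearest to its wild-type mean.

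The genes with the profile nearest to that of Drd2 over the 6 arrays were sought by the root mean square difference between profiles after each gene's mean had been subtracted. The nearest was Gng13, the G protein gamma subunit of olfactory and taste signalling, with a root mean square difference of 0.0794 on the log2 scale (Pearson r = 0.996 over 6 arrays). Gng13 averaged 9.40 ± 0.14 in the knockout and 11.03 ± 0.12 in the wild type (SD, n = 3 each), and its lowest array in each genotype was the same as that of Drd2. Gng13 is also 1 of the 15 mature neuron markers, as is Ano2. Acsl6 (an acyl-CoA synthetase, 0.151), Ano2 (a chloride channel opened by calcium in cilia, 0.158), Stom (stomatin, 0.161) and Stxbp5l (tomosyn-2, which binds syntaxin, 0.166) came next. These correlations rest mainly on the gap between the genotypes.

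For Gabbr2 the nearest profiles were those of Pcdhb1, a clustered protocadherin (0.0941), Fam217a (0.110), Gadl1 (0.111), Plekhb1 (0.118) and Ppp2r2c, a regulatory subunit of protein phosphatase 2A (0.120). All 5 fell, by 0.87 to 1.19 on the log2 scale. This search was added for Gabbr2 after its values had been seen. Gabbr1 had Epas1 (0.0138), Pitpnb (0.0173), Tubb2b (0.0224), Srprb (0.0252) and Pfkp (0.0261) nearest to it, none of which passed the test.

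The inhibitory receptors signal through Gi/o proteins to adenylyl cyclases, potassium channels and calcium channels, and 17 genes of this part of the pathway were measured. Of these 3 fell, 1 rose and 13 did not pass, with a median difference of 0.04. Over all genes 3.24% were called lower and 0.502% higher. Adcy3, the adenylyl cyclase of olfactory cilia, was at 9.39, 9.42 and 9.49 in the knockout, against 10.27, 10.01 and 10.24 in the wild type, and fell by 0.74 (SE 0.08, limma adjusted p = 0.00146). Gnao1, the alpha subunit of Go, fell by 0.39 (SE 0.07, limma adjusted p = 0.0159), and Cacna1b, the pore of the N-type calcium channel of nerve terminals, by 0.35 (SE 0.07, limma adjusted p = 0.0231). Gnai1, an alpha subunit of Gi, was at 10.81, 10.82 and 10.76 in the knockout, against 10.42, 10.49 and 10.24 in the wild type, and rose by 0.41 (SE 0.08, limma adjusted p = 0.0173). The 2 alpha subunits thus moved in opposite directions, with no overlap between genotypes for either. Adcy3 is also 1 of the 15 mature neuron markers, and its call held with any 1 array left out. The Gnao1 call was lost when any of knockout array 1, wild-type array 1 and wild-type array 2 was left out (adjusted p by limma up to 0.0730). The Gnai1 call was lost when any of knockout arrays 1 and 2 and wild-type array 1 was left out (up to 0.0693). The Cacna1b call was lost when any of knockout arrays 2 and 3 and wild-type arrays 1 and 3 was left out (up to 0.106).

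Of 21 measured genes for proteins that bind these receptors or desensitise them, none passed limma's test in either direction, and the median difference was 0.01. At an unadjusted p of 0.05, 2 were lower and 4 higher, counts with no share over all genes beside them. None passed with a trended robust prior. Kctd16, an auxiliary subunit of GABA-B receptors, had the lowest p. It was at 9.45, 9.56 and 9.26 in the knockout, against 9.94, 9.77 and 9.69 in the wild type, a difference of -0.38 (SE 0.09, limma adjusted p = 0.0665). The groups did not overlap, and with replicate number added as a block Kctd16 was lower (limma adjusted p = 0.0183), as it was after quantile normalization of the arrays (0.0465). Kctd8, another auxiliary subunit, was at 0.00 (SE 0.07).

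The transmitters' own genes did not pass the test in this nasal tissue. The juxtaglomerular interneurons lie in the olfactory bulb, so these values do not measure the transmitter supply to the terminals. Of 13 measured genes of dopamine synthesis, transport and breakdown none was called by limma, also at an unadjusted p of 0.05 (0), the range of differences was -0.08 to 0.20 and the median -0.02. Th, the rate-limiting enzyme of dopamine synthesis, was at 8.34, 8.28 and 8.60 in the knockout, against 8.49, 8.34 and 8.61 in the wild type (-0.08, SE 0.10), and Gch1, which makes the cofactor of Th, was at 0.17 (SE 0.08). Gch1 and several others of the 13 genes lay below the 30th percentile of gene means. Of 8 genes of GABA synthesis, transport and breakdown none was called either, with a median of -0.03. At an unadjusted p of 0.05, 2 were higher and 0 lower, again with no share over all genes beside these counts. Gad1, a GABA-synthesising enzyme, was at -0.10 (SE 0.07). Gad2, the other such enzyme, was at 9.61, 9.73 and 9.43 in the knockout, against 9.10, 9.32 and 9.29 in the wild type, with no overlap, and its difference of 0.35 (SE 0.09, limma adjusted p = 0.0801) passed with replicate number added as a block (limma adjusted p = 0.0370) and with knockout array 3 left out (0.0411).

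Other inhibitory receptors of nerve terminals were measured for comparison. None of 25 measured genes for metabotropic glutamate, cannabinoid, adrenergic, serotonin, opioid, neuropeptide Y, muscarinic, somatostatin and histamine receptors passed limma's test. At an unadjusted p of 0.05, 1 was lower and 1 higher, with no share over all genes beside these counts. The differences of the 25 genes ran from -0.22 to 0.25, with a median of -0.02. Chrm2, a muscarinic receptor, had the lowest p (0.20, SE 0.08, limma adjusted p = 0.226), and Grm2, a metabotropic glutamate receptor, was at 0.06 (SE 0.08). Most of the 25 genes, Chrm2 among them, lay below the 30th percentile of gene means, which limits what their small differences show.

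GABA also acts on ligand-gated chloride channels, and of 16 measured subunits of GABA-A and GABA-rho receptors 1 rose and 15 did not pass, with a median of 0.04. Gabrr1, a rho subunit, was at 8.47, 8.54 and 8.26 in the knockout, against 7.96, 8.0 and 7.96 in the wild type, and rose by 0.45 (SE 0.08, limma adjusted p = 0.0139). The call was lost when knockout array 1 or wild-type array 1 was left out (adjusted p by limma up to 0.0622), and a filter at the median of gene means removes Gabrr1. Gabra2 was at 0.04 (SE 0.08). Like most of the 16 subunits, Gabra2 lay below the 30th percentile of gene means. With replicate number added as a block 3 subunits were higher. The block gave 421 higher genes of all 19937, against 100 without it. The further 2 subunits were Gabra3 (0.32, limma adjusted p = 0.0343 with the block) and Gabre (0.29, 0.0267 with the block). Both were named after their values were seen.

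**Figure D4:**
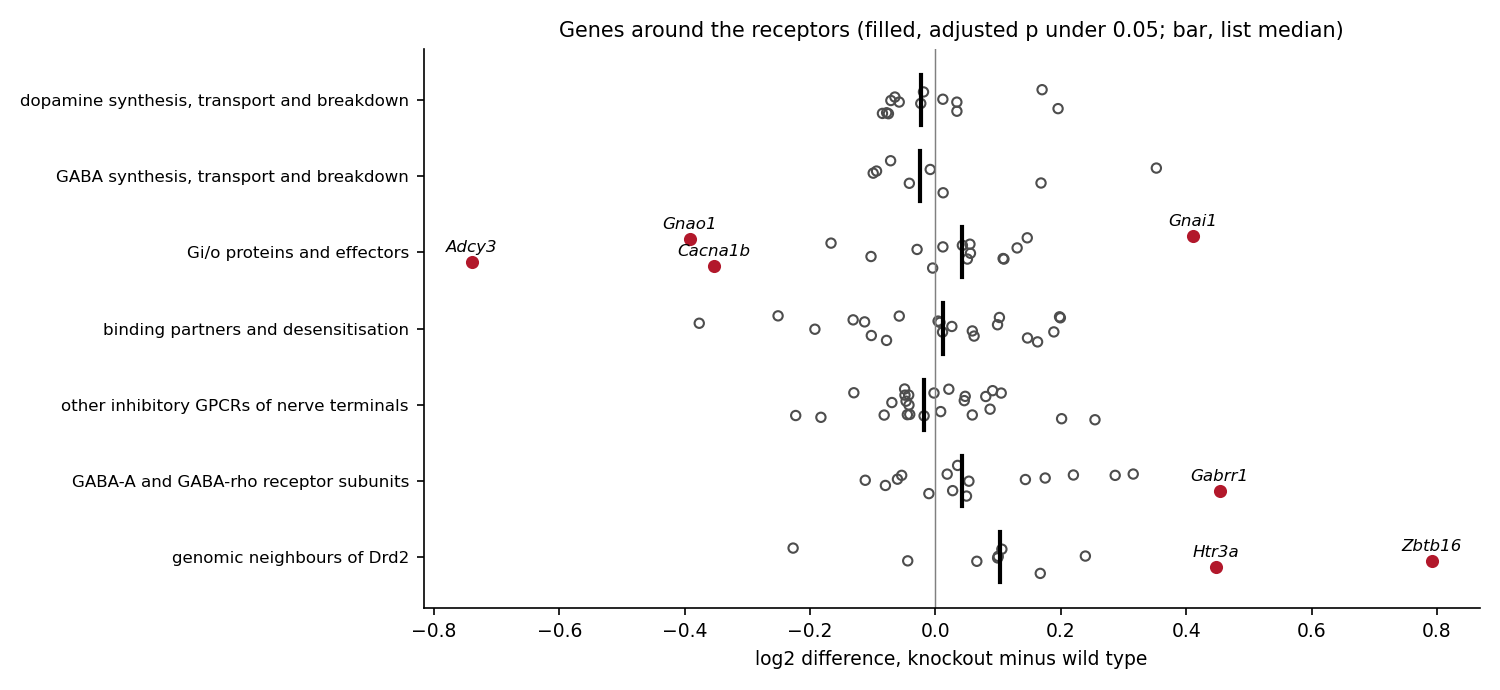
Log2 difference, knockout minus wild type (x axis), of each measured gene of 7 lists around the receptors (rows). Filled points passed the test (limma adjusted p under 0.05), open points did not, and the black bar is the list median. The medians lie between -0.03 and 0.10, and the 7 filled genes are Adcy3, Gnao1, Cacna1b, Gnai1, Gabrr1, Htr3a and Zbtb16.

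Drd2 lies on chromosome 9 between Gm4894 and Ankk1 in the order of protein-coding genes of GRCm38.p6. Of the 26 measured genes within 14 places on either side of it none fell, 2 rose and 24 did not pass limma's test, and their median difference was 0.04. At an unadjusted p of 0.05, 2 were lower and 3 higher, counts with no share over all genes beside them. Ankk1, the next gene, was at 0.10 (SE 0.07), and Ncam1, a neural adhesion molecule 3 places away, was at -0.23, the lowest of the 26. Both genes that rose lie on the same side. Zbtb16, a zinc finger transcription factor 9 places away, was at 11.45, 11.20 and 11.30 in the knockout, against 10.53, 10.56 and 10.49 in the wild type, and rose by 0.79 (SE 0.07, limma adjusted p = 0.000822). Htr3a, a subunit of the serotonin-gated channel 7 places away, was at 8.21, 8.07 and 8.0 in the knockout, against 7.64, 7.70 and 7.59 in the wild type, and rose by 0.45 (SE 0.07, limma adjusted p = 0.00931). Htr3a is dim: the filters at the 30th percentile and at the median both remove it, which leaves Zbtb16 as the 1 neighbour called.

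**Figure D5:**
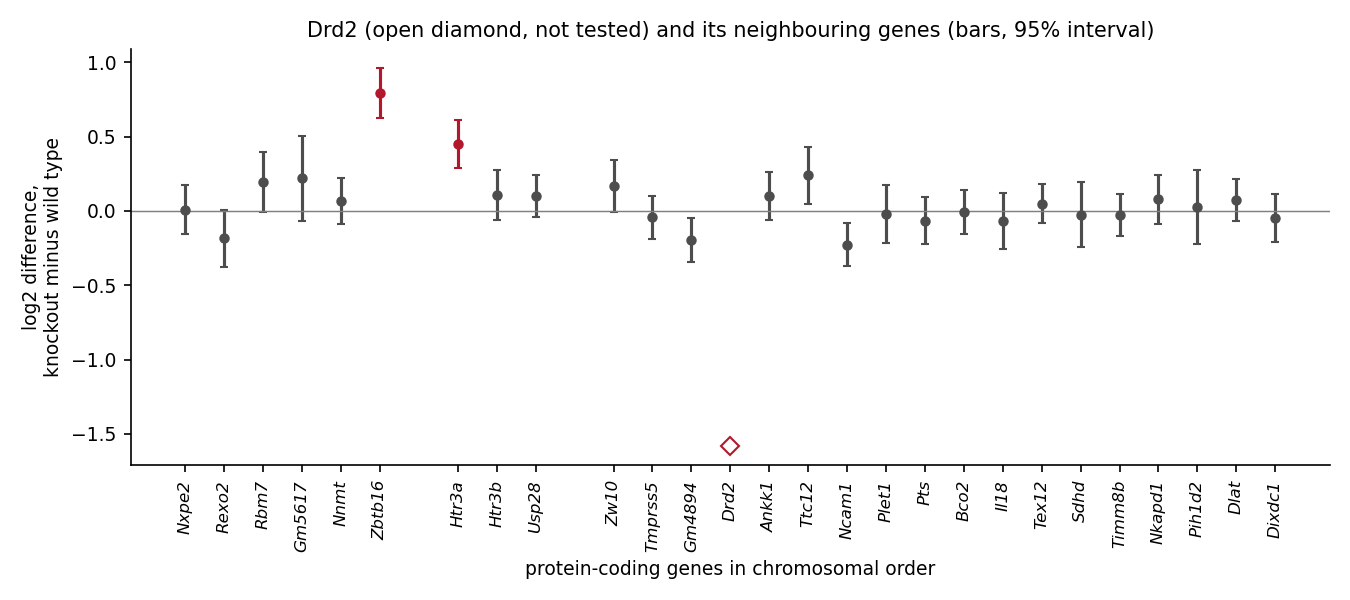
Log2 difference, knockout minus wild type (y axis, bars are 95% intervals), of Drd2 and the measured protein-coding genes around it in chromosomal order (x axis; gaps are places without a measured gene). Drd2 (open diamond, not tested) is at -1.58, Zbtb16 and Htr3a rose by 0.79 and 0.45, and the other neighbours did not pass the test.

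Markers of other cells were measured beside these results. Of 10 markers of immature olfactory neurons 3 fell, Gap43 (-0.43), Dcx (-0.68) and Gng8 (-0.45). With the replicate block 4 were lower, which added Stmn2 (-0.26, limma adjusted p = 0.0480 with the block). Of all 19937 genes the block gave 889 lower and 421 higher, to set beside the block counts here and below. The list's mean level was 10.32 to 10.52 in the knockout, against 10.58 to 10.71 in the wild type. Pituitary cells also express Drd2. Of 8 measured pituitary markers 1 fell, Pcsk1 (-0.57), a prohormone convertase, while the hormone genes Pomc (-0.07), Prl (0.09) and Gh (-0.03) did not pass, and the list's mean was 7.47 to 7.52 in the knockout, against 7.51 to 7.62 in the wild type. Of 12 markers of olfactory bulb and other central neurons 1 fell, Calb2 (-0.76), with Eomes (-0.22), Tbr1 (-0.02) and Tbx21 (-0.09) not passing and a list mean of 8.13 to 8.16 in the knockout, against 8.17 to 8.31 in the wild type. The part of these cells in the difference of Drd2 and Gabbr2 was not tested.

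None of 6 retina markers (Crx -0.10, Nrl -0.05, Rcvrn -0.01) passed limma's test. Of 7 ensheathing glia markers (Fabp7 -0.25, Sox10 0.02, S100b 0.03) none passed it either. At an unadjusted p of 0.05, 0 retina and 2 glia markers passed, and with the replicate block 1 glia marker was lower. Counts at the unadjusted cut, here and below, have no share over all genes beside them. With a trended robust prior 1 glia marker passed. Of 7 sustentacular cell markers 1 fell (2 with the block), Sult1d1 (-1.16), with Cyp2g1 at -0.36, Cyp1a2 at -0.33 and Ermn at -0.03. With a trended robust prior 2 of the 7 passed. Of 6 tooth enamel genes 2 fell (Amelx -1.98 and Enam -2.47; 4 with the block and 0 with a trended robust prior), with Ambn at -2.32 and a list mean of 8.0 to 8.69 in the knockout, against 9.07 to 10.35 in the wild type. None of 9 skeletal muscle genes (among them Myh3 0.96, Myh8 0.47 and Acta1 0.59) passed limma's test, with 1 at an unadjusted p of 0.05 and 2 higher with the block. The mean of the 9 was 9.56 to 9.87 in the knockout, against 8.74 to 9.68 in the wild type. The part of these tissues in the differences of the receptor genes was not tested.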

How the data were processed

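RNA of 6 samples was hybridised to 1-colour whole-transcript arrays. The submitters' processing notes name RMA, affy and limma with no version. The values that the authors deposited, between 4.50 and 14.7, were taken to be log2 levels; no source used here states the base or the sequence of steps. RMA generally makes array distributions alike, so a change shared by most transcripts would not show, and the number of arrays limits precision. The labels call the samples biological replicates.

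Of 34760 rows, 21640 had 1 gene symbol in GEO's platform annotation, 1321 several and 11799 none. Of the first, 21553 matched RefSeq's GRCm38.p6 table by gene number, which changed 0 symbols. The probe set with the highest mean over all arrays stood for each of 19937 genes. The table held 0 columns of other samples.

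The genotypes were compared by limma 3.58.1 (lmFit and eBayes, R 4.3.3), 2-sided, with p-values adjusted by Benjamini-Hochberg across the 19937 genes and called at 0.05. The procedure was tested on simulated data. The SE is limma's, and the exact permutation test used scipy 1.17.1. Promoters came from RefSeq, where all 7 genes matched; both entries for Drd1 were searched.

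The members, the 7 pathway lists (that of the neighbours of Drd2 among them) and the 9 marker lists were chosen with earlier results of these data known. By rule the text names all members, Atf5, the first measured gene of each pathway list with up to 4 called genes of largest change (or the gene of lowest p), the 5 nearest profiles of Drd2 and Gabbr1 (olfactory and vomeronasal receptors, Gm and Rik symbols left out) and the first 3 genes of each marker list. Gabra3, Gabre, Ncam1, Gm4894, Pcsk1, Calb2, Sult1d1, Stmn2 and the profiles nearest to Gabbr2 were named after their values were seen. Listed genes without a probe set of 1 symbol were not analysed here.

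Arrays sharing a replicate number had deviations from their genotype's mean that correlated at 0.295, 0.122 and 0.234 for numbers 1, 2 and 3. Each exceeded 0.1, the limit used for pairing, so pairing rests on the values and on no label. Results with the replicate block are printed where a call changed. Other alternatives were quantile normalization, median centring, 2 filters, probe set means, a trended robust prior and each array left out.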

Additional observations from a re-analysis of the deposited data

How the results depend on the processing

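Drd2 stayed between -1.68 and -1.47 and Gabbr2 between -1.07 and -0.94 (always past the test) over the 13 alternatives, Gabbr1 between -0.17 and -0.05 (never past it), and Gabbr2 relative to Gabbr1 between -0.96 and -0.77 over 9. Drd1, Drd3 and Drd4 kept their sign wherever the filters kept them, and no filter or scaling brought a call; Drd5 ran from -0.0038 (without knockout replicate 3) to 0.115 with 1 array left out. Drd2 relative to the mature neuron markers ran from -0.121 to 0.0686 with 1 array left out, being 0.0686 when knockout replicate 1 was dropped and 0.0344 when wild-type replicate 3 was. The replicate block gave 421 higher genes and 7 higher genes over the 7 pathway lists, against 100 and 4 without it. These lists include that of the neighbours of Drd2, which held 2 of the 4. The block changed no call of the 6 tested receptor genes (adjusted p = 0.000633 by limma for Gabbr2). It gave 889 lower genes, and changed no call of a gene named by rule beyond those printed with it. Filters, which test fewer genes, gave 358 lower genes at the 30th percentile, against 645. At the median they gave 226 lower, 60 higher and 2 higher genes of these lists, against 645, 100 and 4. With 1 array left out the counts were 383 to 584 lower and 27 to 127 higher genes. For the pathway lists they were 1 to 2 lower and 2 to 6 higher genes, where 3 were lower with all arrays. The counts 383, 27, 1 and 2 came without wild-type replicate 1. Apart from the smaller number of genes or arrays, the cause was not tested. Drd3, Drd5, Htr3a, Chrm2, Gch1 and Gabra2 are dim, as are most of the other inhibitory receptors and of the GABA-A and GABA-rho subunits. This limits what a small difference shows.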
